A study of Mus musculus with 3 samples.

Results

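The genes described here are 10 factors that cut and polyadenylate messenger RNA in mouse testis, among them the intronless testis forms Cstf2t and Papolb and their intron-bearing parents Cstf2 and Papola. Members were all models whose gene symbol was Cstf1, Cstf2, Cstf2t, Cstf3, Papola, Papolb, Nudt21, Cpsf6, Cpsf3 or Pcf11. All 10 genes were found, with 20 models, of 23135 gene symbols and 50081 models in the table. CAGE, a method that sequences RNA from its cap, had been run on testes of wild-type C57BL/6J mice at 10.5 days post partum and in adults, and PAS-Seq, which sequences the junction with the poly(A) tail (read length 100 nt), on wild-type C57BL/6J adult testes. Each of these 3 groups held 1 library of total RNA from whole testes, so germ cells and somatic cells were mixed.

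The table gave positions and exons of models for the whole series, with no library named, in the mm9 build, counted here from 1. It held no read count and no value per library. Neither the depth of a library nor the level of a transcript could be given, the 10.5-day and adult testes could not be compared, and no test was run. A model is called RefSeq-derived where it carried a RefSeq accession and CUFF where its identifier had the Cufflinks form. Each model also had a code, such as NM or XX, whose meaning is not stated. The sources used here do not say whether or how reads of either method shaped starts and ends. A start is the first base of a model in its direction of transcription and an end its last, and neighbouring starts, or ends, no more than 50 nt apart counted as 1.

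The 3′ end of a messenger RNA is made by cutting the nascent transcript and adding a poly(A) tail. The cleavage and polyadenylation specificity factor holds the endonuclease (Cpsf3), the cleavage stimulation factor (Cstf1, Cstf2 and Cstf3) binds downstream of the cut, cleavage factor I (Nudt21 and Cpsf6) binds upstream of it, Pcf11 belongs to cleavage factor II and also acts in termination, and poly(A) polymerase (Papola) adds the tail. Cstf2 is X-linked, and the X chromosome is silenced in meiotic spermatocytes. Its autosomal retrocopy Cstf2t is used in male germ cells, and Papolb encodes the poly(A) polymerase of spermatids. Male mice that lack Cstf2t or Papolb are known to be infertile. Transcripts of male germ cells are also known for frequent use of poly(A) sites close to the stop codon.

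The promoter windows of the 2 copies and their parents are shown because a retrocopy, made from a processed RNA, lands without its parent's promoter. Each runs from 250 bases before to 50 after the RefSeq start in GRCm38.p6, in the direction of transcription, with the start at position 1 and no base between -1 and 1. All 10 members had 1 such window. The windows come from a later build than the models, so they could not be placed against the model starts. For Cstf2t (chr19:31082591-31082890, plus strand) and Cstf2 (chrX:134058926-134059225, plus strand), capitals mark AACNG, the core bound by MYB proteins, on either strand.
Cstf2t: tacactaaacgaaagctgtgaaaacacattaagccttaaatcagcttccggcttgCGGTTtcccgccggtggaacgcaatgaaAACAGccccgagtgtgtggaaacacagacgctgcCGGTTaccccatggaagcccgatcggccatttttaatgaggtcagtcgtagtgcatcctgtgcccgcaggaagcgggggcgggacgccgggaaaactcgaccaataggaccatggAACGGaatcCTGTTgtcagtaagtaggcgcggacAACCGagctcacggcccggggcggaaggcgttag
Cstf2: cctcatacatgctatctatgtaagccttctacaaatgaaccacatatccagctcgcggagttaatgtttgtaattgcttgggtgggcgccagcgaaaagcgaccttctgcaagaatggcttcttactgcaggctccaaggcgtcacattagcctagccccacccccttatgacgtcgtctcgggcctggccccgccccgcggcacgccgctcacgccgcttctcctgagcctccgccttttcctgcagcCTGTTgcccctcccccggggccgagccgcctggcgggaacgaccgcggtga
For Papolb (chr5:142530027-142530326, minus strand) and Papola (chr12:105784447-105784746, plus strand), capitals mark the best local alignment of the pair.
Papolb: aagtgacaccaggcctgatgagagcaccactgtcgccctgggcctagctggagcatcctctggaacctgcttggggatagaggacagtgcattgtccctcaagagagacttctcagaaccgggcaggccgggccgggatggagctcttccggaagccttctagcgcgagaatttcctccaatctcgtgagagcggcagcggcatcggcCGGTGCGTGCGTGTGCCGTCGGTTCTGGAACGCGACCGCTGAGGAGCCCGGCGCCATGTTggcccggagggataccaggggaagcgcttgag
Papola: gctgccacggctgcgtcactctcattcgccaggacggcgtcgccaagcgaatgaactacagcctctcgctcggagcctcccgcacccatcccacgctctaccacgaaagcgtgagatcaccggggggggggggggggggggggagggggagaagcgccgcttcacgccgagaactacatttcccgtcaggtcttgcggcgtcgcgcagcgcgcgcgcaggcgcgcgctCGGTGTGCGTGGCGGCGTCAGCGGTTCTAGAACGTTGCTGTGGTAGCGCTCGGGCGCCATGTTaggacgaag

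The window of Papolb held a stretch that resembled the 5′ end of Papola, and the window of Cstf2t aligned to that of Cstf2 no better than a typical window did. In the Papol pair 49 of 69 alignment columns were identical (71.0%), with 15 gap columns, from -42 to 18 in Papolb and from -22 to 41 in Papola. The score, at 2 for a match, -3 for a mismatch, -5 to open a gap and -2 to extend it, was 32. Papola ranked 19 of 32850 windows scored against Papolb, for which the median was 18 and the highest 38. The longest run they shared was GGCGCCATGTT, at 8 to 18 in Papolb and at 31 to 41 in Papola, a run found in 0.0335% of all 32851 windows. The resemblance thus covered bases after the start of both genes and some before it. For the Cstf pair the score was 18 (rank 12815 of 32850, median 18), over 15 columns that did not lie at matching positions.

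The 10 windows were of the CpG-rich kind. Every one had an observed to expected CpG ratio over 0.6 and a GC content over 50%, as had 33.3% of all windows. The CpG ratio ran from 0.773 in Papolb to 1.15 in Papola, against a median of 0.384 over all windows. TATAAA on the gene strand was in none of the 10, in 8.32% of all windows and in 2.79% of CpG-rich ones. AACNG on either strand was in 9 of 10, all but Cstf1, against 80.3% of all windows and 74.3% of CpG-rich ones, shares close to that of the members. The longer AACNGNC, which always contains AACNG, was in 7 of 10 against 32.8% of all windows and 31.9% of CpG-rich ones. Cstf2t and Cpsf3 held 6 AACNG matches each, a number reached by 1.55% of windows, whereas Cstf2, Papola and Cstf3 held 1 each. Pcf11 held 3. The other copy, Papolb, held 2, as did Nudt21 and Cpsf6, which was the median over all windows. TGACG, part of the element bound by CREB and CREM proteins and chosen after the sequences had been seen, was in 5 of 10 (Cstf2, Cstf3, Papola, Nudt21 and Cpsf6), against 20.8% of all windows and 35.6% of CpG-rich ones. Both parents held it and neither copy did. A pyrimidine followed by a purine at the start, the usual form of a start site, was present in 4 of 10 (Cstf1, Cstf3, Papola and Cpsf6), against 46.3% of all windows and 55.8% of CpG-rich ones. These are matches of letters and not sites.

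The intronless copies lacked every intron of their parents in every model. Cstf2t had 1 model, a single exon of 3752 nt on chromosome 19 (31157331 to 31161082, plus strand). Cstf2 had 2 models of 14 exons on the X chromosome. Its RefSeq-derived model (130593888 to 130621360, plus strand) was 4352 nt long after splicing and its CUFF model CUFF.28489.1 (130593655 to 130618887) 2034 nt. Papolb had 2 single-exon models on chromosome 5, a RefSeq-derived one of 2337 nt (143003694 to 143006030, minus strand) and CUFF.21006.1 of 4249 nt (143001799 to 143006047). Papola had 2 models of 22 exons on chromosome 12, a RefSeq-derived one of 4508 nt (107022912 to 107077153, plus strand) and CUFF.6111.2 of 2355 nt (107023265 to 107075102). Over the genome the longest Cstf2 model spanned 27473 bp, 7.32 times Cstf2t, and the longest Papola model 54242 bp, 12.8 times the longest Papolb model. Of all genes with a RefSeq mRNA model, 10.1% were single-exon.

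**Figure D1:**
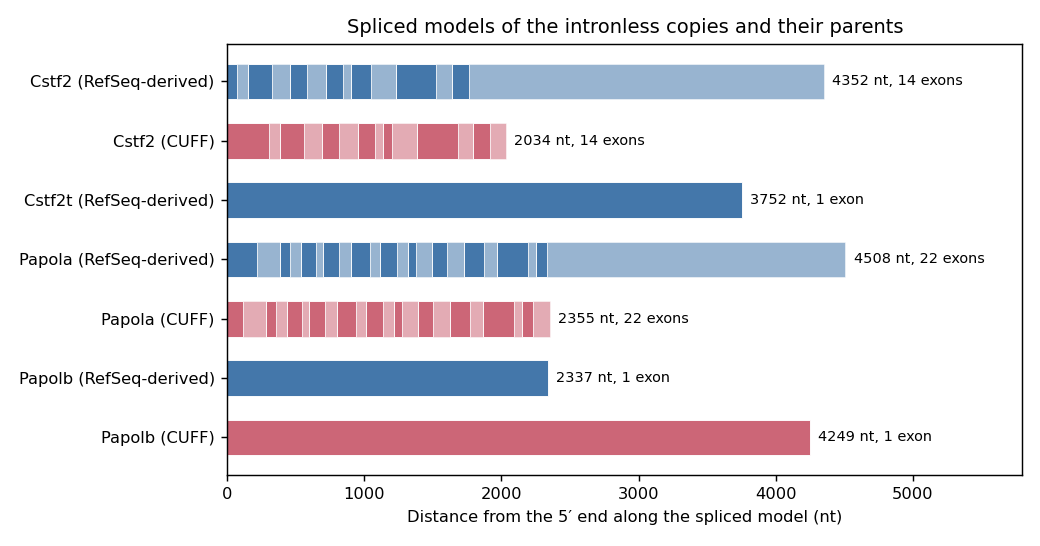
Spliced models of Cstf2, Cstf2t, Papola and Papolb, drawn from the 5′ end along the spliced RNA (x axis, nt), with blue for RefSeq-derived and red for CUFF models and alternating shades for successive exons. Both parents have a CUFF model without most of the long last exon (2034 nt against 4352 nt for Cstf2, 2355 nt against 4508 nt for Papola), and the CUFF model of Papolb is the longer of its 2 (4249 nt against 2337 nt).

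In the CUFF models the parents ended early and Papolb ended late. The last exon of Cstf2 was 2590 nt in the RefSeq-derived model and 117 nt in the CUFF model, which ended 2473 nt upstream. For Papola the last exon was 2179 nt and 128 nt, and the CUFF end lay 2051 nt upstream. Both CUFF models opened the last exon at the RefSeq acceptor, so the difference was in where that exon ended and not in splicing. Papolb went the other way, with a CUFF end 1895 nt downstream of the RefSeq end and a start 17 nt upstream. Cstf2t had no CUFF model, so no second end could be set against its RefSeq end. As a result the order of lengths depended on the model. Cstf2t was 0.862 times Cstf2 by the longest models and 1.84 times by the shortest, and Papolb was 0.943 times Papola by the longest, 0.992 times by the shortest and 0.518 times by the longest RefSeq-derived models. The table marks no coding region in these models, so how much of each last exon is untranslated cannot be given.

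The size of these shifts can be set against all CUFF models whose last exon opened at a RefSeq last acceptor. Of multi-exon CUFF models with an end over 50 nt upstream of RefSeq ends, 60.1% were of this kind, 2260 models with a median shift of 444 nt. Shifts at least as large as that of Cstf2 were found in 9.69% of them and at least as large as that of Papola in 13.7%. Without regard to the last acceptor, 43.4% of the 3153 genes with an upstream shift had one as large as Cstf2 and 46.7% one as large as Papola. Papolb's downstream shift was reached by 39.5% of 1728 genes.

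Starts of the 2 parents also differed between models. The CUFF model of Cstf2 started 233 nt upstream of the RefSeq start and had a first exon of 307 nt in place of 74 nt with the same donor. Its exon 9 was 64 nt in place of 142 nt, since the acceptor lay 78 nt further downstream, a multiple of 3. The CUFF model of Papola started 353 nt downstream, in a first exon of 111 nt that lay wholly within RefSeq intron 1, 140 nt past the end of RefSeq exon 1, and spliced to the same exon 2. This was a small shift, since 89.8% of the 2952 genes with a downstream start had one at least as large (median 11898 nt). The upstream start shift of Cstf2 was reached by 59.6% of 2422 genes. Papolg, an intron-bearing paralog of Papola, had the same pair of differences. Its CUFF start lay 606 nt downstream, in a first exon of 29 nt within intron 1. Its CUFF end lay 1065 nt upstream, with a last exon of 346 nt in place of 1411 nt. Papolg was picked out for this match. Of the 18 other pathway genes with CUFF models described below, it was the only 1 with a first exon wholly within RefSeq intron 1. The share over all genes with both kinds of model was 15.1%. Papola and Papolg both had 22 exons in their RefSeq-derived models, and 14 successive exons (3 to 16 in both, 1339 nt in sum) had identical lengths, from 54 to 139 nt. Papolb carried none of these boundaries.

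Both copies lay inside an intron of another gene, on different strands relative to the host. Cstf2t lay in intron 3 of Prkg1, a cyclic GMP-dependent protein kinase gene, whose intron of 309123 bp is read from the opposite strand. Papolb lay in intron 2 of Radil (35087 bp), on the same strand, in the RefSeq-derived and in the CUFF model of Radil. An unspliced Radil transcript and Papolb would therefore cover the same bases of the same strand. Of 2060 single-exon genes with RefSeq mRNA models, 4.81% lay within an intron of another gene, 3.06% on the strand of the host, as Papolb did, and 1.8% on the other strand, as Cstf2t did. Cstf2 itself held the hairpin of Mir3112 (X chromosome, 130609855 to 130609936, 82 nt, plus strand) in its intron 11, 510 bp after exon 11. The hairpin model was coded XX.

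Cstf3, the scaffold subunit of the cleavage stimulation factor, had the most ends of the 10 genes. Its 4 models on chromosome 2 shared the plus strand and had 3 ends. The full-length RefSeq-derived model (104430641 to 104505582) had 21 exons and 2852 nt. A 2-exon model of 778 nt ended at 104449586 and a 3-exon model of 2637 nt at 104451563. Both short models ended in intron 3, the longest intron of the gene at 35102 bp, at 243 nt and 2220 nt past the end of exon 3, and so 1977 bp apart. The 2-exon model read through exon 2, the 118 bp of intron 2 and exon 3, whereas the 3-exon model spliced exon 2 to exon 3 and read on from there, with a last exon of 2316 nt. An intronic poly(A) site of Cstf3 that makes short transcripts is known from earlier work. All 3 of these ends came from RefSeq. The 3-exon model was coded XX, and the 2-exon model and the full-length one NM.

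**Figure D2:**
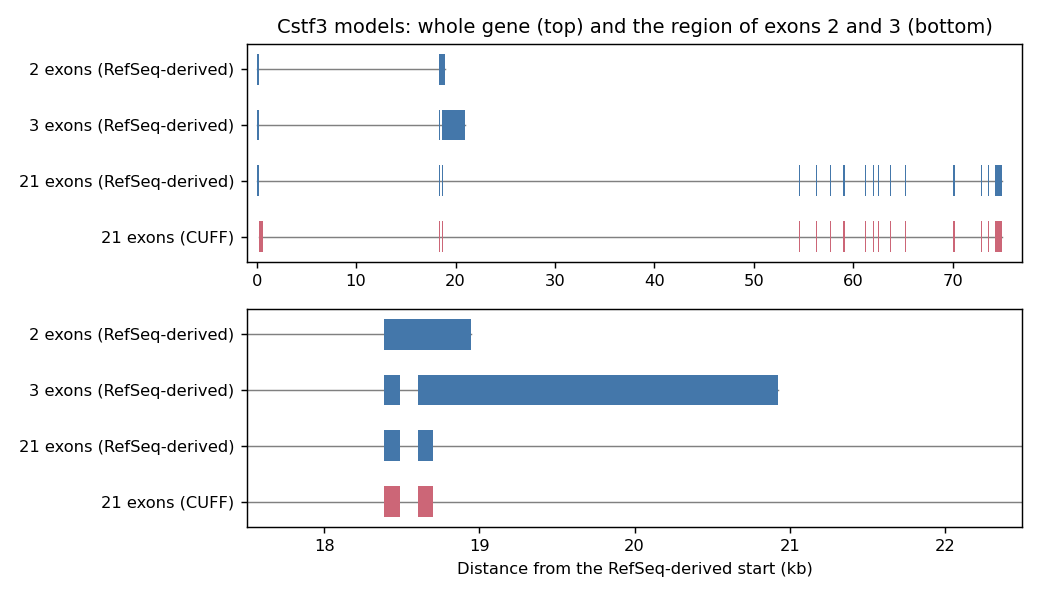
The 4 models of Cstf3 against the distance from the RefSeq-derived start (x axis, kb), for the whole gene and for the region of exons 2 and 3, with bars for exons, grey lines for introns, blue for RefSeq-derived and red for CUFF models. The short models stop 243 and 2220 nt past exon 3, and the CUFF model starts 242 nt downstream of the others.

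The CUFF model of Cstf3 (CUFF.14964.4, 104430883 to 104505582) shared the full-length end exactly and 20 of its exons, and differed in its start. It began 242 nt downstream with a first exon of 370 nt that lay within intron 1, 23 nt past RefSeq exon 1. Of the 2952 genes with a downstream start, 93.9% had a shift at least as large. The spliced length of the CUFF model was 3003 nt. A first exon wholly within RefSeq intron 1 was thus found in 2 of the 6 members that had CUFF models, Cstf3 and Papola, against 15.1% of 6387 genes with both kinds of model. Cstf1, the subunit with WD repeats, had 1 RefSeq-derived model on chromosome 2 (172196503 to 172206586, plus strand) of 6 exons and 1820 nt, with a first exon of 25 nt and a last exon of 727 nt.

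Of cleavage factor I, Nudt21 had the longest extension of the group and Cpsf6 a small shortening. Nudt21 binds UGUA in RNA upstream of the cut. Its RefSeq-derived model on chromosome 8 (96543303 to 96560939, minus strand) had 7 exons and 1111 nt with a last exon of 302 nt. The CUFF model CUFF.25791.1 (96539374 to 96561605) had the same 7 exons but 5706 nt, because its last exon was 4231 nt and its first 929 nt in place of 263 nt. Its end lay 3929 nt downstream and its start 666 nt upstream, a start shift reached by 31.5% of 2422 genes with an upstream start. The end shift was reached by 21.6% of the 1728 genes with a downstream shift and by 9.56% of the 1506 CUFF models extended from a RefSeq last acceptor (median 887 nt), which were 75.3% of all multi-exon CUFF models with a downstream end. The RefSeq-derived last exon of Nudt21 was among the short ones, since 86.4% of 18252 multi-exon genes had one at least as long, and it was the CUFF model that had a long one.

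Cpsf6, the partner of Nudt21 in the factor, had the longest last exon of the 8 multi-exon genes, 4800 nt in its RefSeq-derived model on chromosome 10 (116781724 to 116814029, minus strand, 10 exons, 6534 nt). Only 3.19% of multi-exon genes had one at least as long. Its 3 CUFF models all ended 334 nt upstream, with last exons of 4466 nt, and all started at the RefSeq start. They differed from each other in splicing alone. CUFF.2954.4 (6200 nt) had the RefSeq junctions. CUFF.2954.2 (6311 nt, 11 exons) carried an additional exon of 111 nt, 129 nt into intron 5. CUFF.2954.3 (6203 nt) used an acceptor of exon 9 that lay 3 nt further upstream. The additional exon and the acceptor shift were both multiples of 3 nt. An internal exon outside all RefSeq exons was thus present in 1 of 6 members, against 12.2% of genes with both kinds of model.

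Cpsf3 and Pcf11 had RefSeq-derived models alone. Cpsf3, which encodes the endonuclease, had 18 exons and 2560 nt on chromosome 12 (21292158 to 21320917, plus strand), with a last exon of 409 nt. Pcf11 had 16 exons and 5804 nt on chromosome 7 (99792222 to 99818422, minus strand), with a last exon of 1066 nt, close to the median of 1041 nt over all multi-exon genes (quartiles 477 and 2024). With Cstf1 and Cstf2t they made up the 4 members without a CUFF model. Over the 8 multi-exon members the median of the longest RefSeq last exon was 1622.5 nt, and the range ran from 302 nt in Nudt21 to 4800 nt in Cpsf6.

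**Figure D3:**
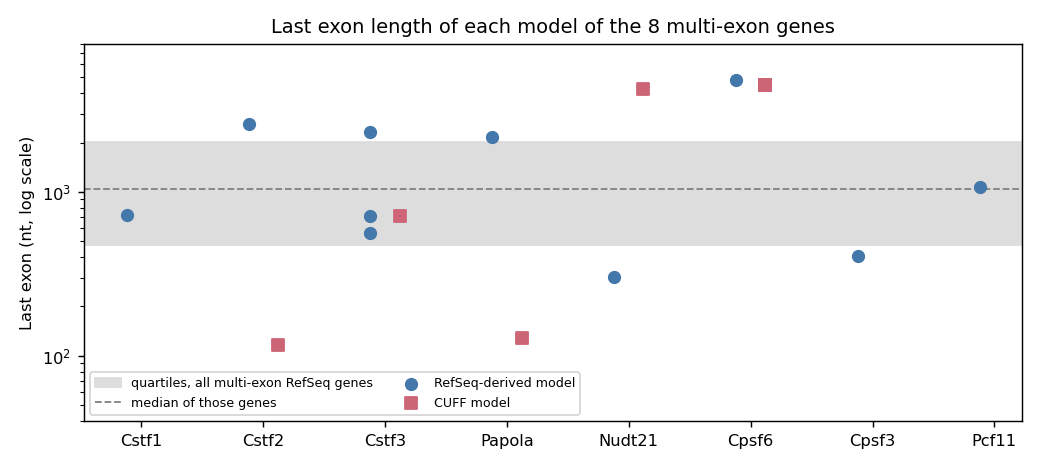
Last exon length (y axis, nt, log scale) of each model of the 8 multi-exon members, with circles for RefSeq-derived and squares for CUFF models, against the quartiles (477 and 2024 nt, grey band) and median (1041 nt, dashed line) of 18252 multi-exon RefSeq genes. The CUFF models of Cstf2 (117 nt) and Papola (128 nt) lie below the band and those of Nudt21 (4231 nt) and Cpsf6 (4466 nt) above it.

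With ends and starts merged within 50 nt, more members had more than 1 end than had more than 1 start. More than 1 end was found for 6 of 10 (Cstf2, Cstf3, Papola, Papolb, Nudt21 and Cpsf6), against 23.0% of 22421 genes. More than 1 start was found for 4 of 10 (Cstf2, Cstf3, Papola and Nudt21), against 26.6%. CUFF models were present for 6 of 10 members against 28.5% of genes, and a gene with 1 model can have only 1 start and end. Among genes with at least 2 models the shares were 6 of 6 members for ends against 59.7%, and 4 of 6 for starts against 69.3%. A CUFF end over 50 nt from every RefSeq end was found in 5 of 6 members against 72.8%, upstream in 3 of 6 against 49.4% and downstream in 2 of 6 against 27.1%. A CUFF start over 50 nt from RefSeq starts was found in 4 of 6 against 77.3%, upstream in 2 of 6 (37.9%) and downstream in 2 of 6 (46.2%). Both the start and the end differed in 3 of 6 members (Cstf2, Papola and Nudt21), against 55.1%. With 6 members a difference of 1 gene moves these shares far. Cstf3 counted among the genes with more than 1 end through RefSeq-derived models alone. With 10 nt in place of 50 nt, CUFF ends lay away from RefSeq ends in 5 members and CUFF starts from RefSeq starts also in 5. Every member had a model with a code other than XX, against 62.3% of RefSeq symbols. With every model of the symbol required to have such a code, the counts were 9 of 10 members and 59.9% of symbols. Whether the codes bear on expression is not stated.

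**Figure D4:**
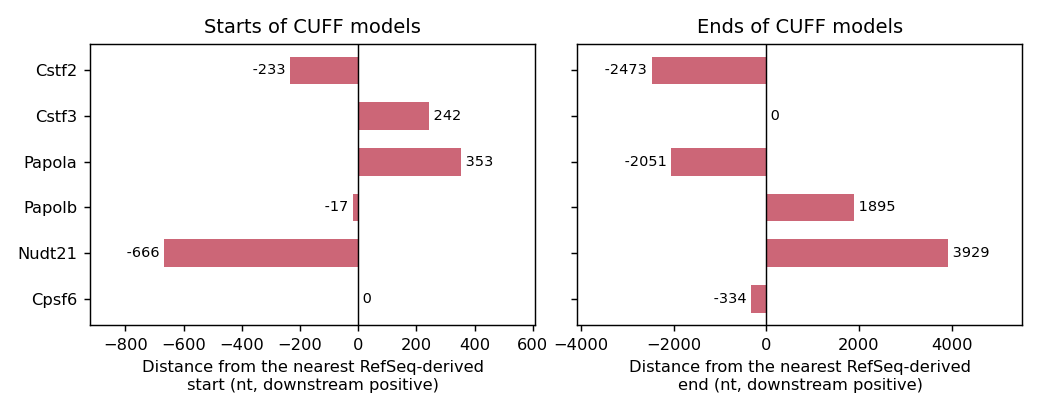
Distance of CUFF starts (left) and ends (right) from the nearest RefSeq-derived start or end (x axes, nt, downstream positive) for the 6 members with CUFF models. Cstf2 (-2473 nt), Papola (-2051 nt) and Cpsf6 (-334 nt) end upstream, Papolb (1895 nt) and Nudt21 (3929 nt) downstream, and Cstf3 at the RefSeq end.

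A divergent neighbour stood close to the start of 3 of the 10 genes, against 11.3% of genes with an opposite-strand start 1 to 500 bp upstream. Cpsf3 and Itgb1bp1, which encodes an integrin-binding protein, started 60 bp apart in their RefSeq-derived models, and a CUFF model of Itgb1bp1 started 18 bp inside Cpsf3. Nudt21 and Ogfod1, a prolyl hydroxylase gene, started 159 bp apart, and the longer CUFF first exon of Nudt21 started 507 bp past the Ogfod1 start, so that the models overlapped. Cstf1 and Aurka, the mitotic kinase gene, started 497 bp apart, and a CUFF model of Aurka started 212 bp past the Cstf1 start. At all 3 pairs the CUFF start was the one that overlapped the neighbour. At its 3′ end the RefSeq-derived model of Cstf2 lay 325 bp from the end of Nox1 on the opposite strand. The CUFF end of Cstf2 lay further from it.

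The other genes of the pathway were taken from a list of 30, all of which were found. A code other than XX was present for 28 (62.3% of all RefSeq symbols), with Pabpn1l and Pabpc5 as the exceptions. More than 1 end was found for 16 of 30 (23.0% of all genes) and more than 1 start for 11 of 30 (26.6%). Among the 19 with at least 2 models, 16 had more than 1 end (59.7% of all such genes). More than 1 start was found for 11 of these 19, below the share of 69.3% for all such genes. Of the 18 with CUFF models (28.5% of all genes had one), 16 had a CUFF end away from RefSeq ends (72.8%), upstream in 11 (49.4%) and downstream in 7 (27.1%), with Papd4 and Pabpc4 in both directions. Fip1l1, a subunit of the specificity factor, ended 1257 nt upstream in both of its CUFF models. Wdr33, a subunit that binds AAUAAA, ended 1901 nt upstream. Cpsf7, the paralog of Cpsf6, ended 232 nt upstream and started 585 nt downstream. Xrn2, the nuclease of transcription termination, had a CUFF model of 17 exons that ended 37085 bp upstream of the RefSeq end, where the RefSeq-derived model had 30 exons. Ppp1cb ended 22721 bp and Scaf4 4576 bp downstream, both in last exons that did not open at a RefSeq last acceptor. Cpsf1, Cpsf2, Cpsf4, Sympk, Clp1 and Pabpn1 had RefSeq-derived models alone. Pabpc2 and Pabpc6, which encode poly(A)-binding proteins, were the single-exon genes of the list, and the CUFF model of Pabpc6 ended 313 nt upstream. The median of the longest RefSeq last exon was 1141 nt over the 28 multi-exon genes of this list.

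Other germline retrocopies were set beside Cstf2t and Papolb through a list of 8 copies whose parents are all X-linked, as Cstf2 is and Papola is not. Of the 8, 7 were single-exon in every RefSeq-derived model (Pgk2, Pdha2, Rbmxl2, Rpl10l, Cetn1, G6pd2 and Gykl1), and Utp14b had 3 or 4 exons. Their parents had 5 to 20 exons. By the longest RefSeq-derived models, 6 of 8 copies were shorter than the parent, with ratios from 0.43 for Gykl1 to 1.52 for Utp14b and a median of 0.868, next to 0.862 for Cstf2t and 0.518 for Papolb. Both Cstf2t and Papolb lay within an intron of another gene. Of the 7 single-exon copies 0 did, which is near the share of 4.81% over all 2060 single-exon genes. Utp14b, which is not single-exon, was left out of this count, so whether any part of it lies in an intron of another gene is not given. The count thus does not show that an intronic position is particular to Cstf2t and Papolb. G6pd2, the copy of G6pdx, resembled Papolb in its models. Its CUFF model started 24 nt upstream and ended 822 nt downstream, and was 2481 nt long against 1635 nt. The other copies with CUFF models, Utp14b and Cetn1, also had CUFF ends downstream, but in spliced models unlike that of Papolb. The CUFF model of Cetn1 had 2 exons and ended 2600 bp downstream. That of Utp14b had 16 exons and ended 39092 bp downstream. Its 2842 nt were fewer than the 3276 nt of the RefSeq last exon, which it therefore did not contain. Its end was thus no extension of that exon. Over all genes with both kinds of model, 27.1% had a downstream and 49.4% an upstream CUFF end. All 8 copies carried a code other than XX, and so did 7 of the 8 parents, the exception being Gyk. The share over all RefSeq symbols was 62.3%.

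**Figure D5:**
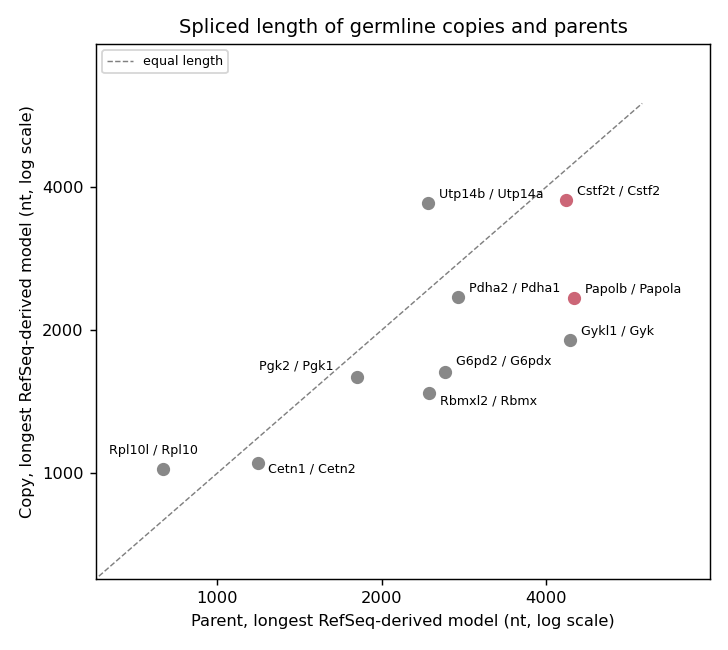
Spliced length of the longest RefSeq-derived model of each copy (y axis) and of its parent (x axis), both in nt on log scales, for Cstf2t and Papolb (red) and 8 other pairs (grey), with a dashed line at equal length. Utp14b and Rpl10l lie above the line and the other 8 copies below it, Papolb at 2337 nt against 4508 nt for Papola.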

How the data were processed

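The series holds CAGE and PAS-Seq libraries of wild-type testes, 1 per group. It also holds 1 deposited table of 50081 transcript models with no value per library. The authors deposited positions, exon numbers and exon lengths in base pairs. TopHat2 2.0.4 and the mm9 build are named in the submitters' processing notes. The sources used here do not say which reads went into the models, nor how models were assembled, coded or filtered. No replicates existed and no test was run. The members and lists were chosen with earlier results of these data known.

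Models were matched by symbol. RefSeq symbols on 1 chromosome and strand (22421) gave the background shares, and 6387 of them had both kinds of model. Every shift is the distance to the nearest RefSeq-derived start or end of that symbol. Counting of starts, ends and shifts was tested on simulated data. Promoter windows and motif shares came from RefSeq (GRCm38.p6), and windows were aligned with Biopython 1.88. Named genes were the members, both lists, and hosts or neighbours within 500 bp. Alternatives changed distances, kinds of model and motif. No protein sequences were used here, so the planned protein comparison was not made.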

Additional observations from a re-analysis of the deposited data

How the results depend on the processing

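Merging ends or starts within 10 or 200 nt in place of 50 nt left the members with more than 1 end at 6 and those with a CUFF end away from RefSeq ends at 5. Starts within 10 nt gave 5 members in place of 4, because the 17 nt shift of Papolb then counted. The counts rest on having both kinds of model: with RefSeq-derived models only, 1 member (Cstf3) had more than 1 end and 0 had more than 1 start, and with CUFF models only, 0 members had more than 1 end and 0 more than 1 start. By the shortest models the ratio of Cstf2t to Cstf2 turned from 0.862 to 1.84. The ratio of Papolb to Papola moved from 0.943 to 0.992 by the shortest models and to 0.518 by the longest RefSeq-derived models. Within 200 bp, 2 members had a head-to-head neighbour in place of 3, and 0 had a tail-to-tail neighbour in place of 1. The share over all genes is not given here at that distance. Protein alignment alternatives were not run. No paired analysis was possible because each group had 1 library and the table gives no value per library. Depth is unknown, so an absent CUFF model does not show that a transcript was absent.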
